A study of Mus musculus with 2 samples.

Results

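The clustered histone genes are the genes that supply most of the histones for new chromatin, and 67 of them were examined in mouse skeletal muscle out of 21938 protein-coding genes. They were taken by name, as the protein-coding genes of GENCODE mouse release M21 whose symbol begins with Hist1h, Hist2h, Hist3h or Hist4h. The Hist1 cluster on chromosome 13 holds 54 members, the Hist2 cluster on chromosome 3 holds 10, the Hist3 cluster on chromosome 11 holds 2 and Hist4h4 on chromosome 6 stands alone. By histone type there were 6 H1, 18 H2a, 18 H2b, 12 H3 and 13 H4 genes.

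The study measured open chromatin by DNase-seq, in which DNase I cuts accessible DNA in nuclei and the cut ends are sequenced. There was 1 group, and the labels name no treatment: gastrocnemius, a calf muscle, from male mice of the hybrid strain B6CASTF1/J aged 25 days. It comprised 2 libraries, biological replicates 1 and 2, from biosamples whose labels number different males but give the same donor identifier. With 1 group, no comparison between conditions exists, so counts and medians of the histone genes are set beside those of all protein-coding genes without a test.

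Clustered histone genes are transcribed mainly in S phase, when replicating DNA needs new nucleosomes. Their messages carry a stem-loop at the 3′ end where other messages carry a poly(A) tail. The promoters are compact, and those of each histone type share short sequence elements: CCAAT boxes bound by NF-Y, the octamer bound by POU2F1 (Oct-1) in H2b promoters, the H4 element bound by HINFP, and the H1 box of the linker histone genes. Muscle fibre nuclei have left the cell cycle, whereas the tissue also holds dividing or resting cells such as satellite, endothelial and stromal cells, and some clustered histone genes are known to be transcribed outside S phase as well.

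The DNA before the most accessible member of each type is shown first, because the results turn on what lies open there. Each line gives the 250 bases before the annotated 5′ end, along the strand of the gene, ending at the base before the start. The sequences are those of the RefSeq GRCm38.p6 genome, the assembly that mm10 also denotes, and therefore of the reference strain and not of the CAST parent. Capitals mark short motifs on either strand: TATAAA as the motif of the box named after it, the letters CCAAT as the box of that name, and TTTGCAT as the core of the octamer. They also mark GGTCCG as the core of the H4 element, AAACACA as the box of H1 genes, and GGGCGG as the GC box. Hist1h1e, a linker histone gene, is at chr13:23622559-23622808 on the minus strand. Hist2h2aa2 is at chr3:96240277-96240526 on the minus strand and Hist2h2bb at chr3:96269502-96269751 on the plus strand. Hist4h4 is at chr6:136804416-136804665 on the minus strand. For H3 there are 2 lines: Hist1h3a (chr13:23762387-23762636, minus strand) had the highest promoter peak, but that peak lay nearer to the start of its neighbour Hist1h4a. Hist1h3e (chr13:23562370-23562619, minus strand) had the highest peak at its own start, and was added after the values had been seen.
Hist1h1e: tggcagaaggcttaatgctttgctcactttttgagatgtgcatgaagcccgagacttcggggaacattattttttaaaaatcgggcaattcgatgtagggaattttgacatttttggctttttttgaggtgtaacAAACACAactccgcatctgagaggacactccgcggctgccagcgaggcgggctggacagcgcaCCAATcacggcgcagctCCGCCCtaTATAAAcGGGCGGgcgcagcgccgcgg
Hist2h2aa2: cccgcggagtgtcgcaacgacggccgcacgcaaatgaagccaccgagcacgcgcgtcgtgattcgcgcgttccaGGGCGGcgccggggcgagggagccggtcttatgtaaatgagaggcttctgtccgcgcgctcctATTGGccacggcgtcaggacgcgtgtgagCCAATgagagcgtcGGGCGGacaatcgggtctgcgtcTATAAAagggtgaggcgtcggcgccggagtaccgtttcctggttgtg
Hist2h2bb: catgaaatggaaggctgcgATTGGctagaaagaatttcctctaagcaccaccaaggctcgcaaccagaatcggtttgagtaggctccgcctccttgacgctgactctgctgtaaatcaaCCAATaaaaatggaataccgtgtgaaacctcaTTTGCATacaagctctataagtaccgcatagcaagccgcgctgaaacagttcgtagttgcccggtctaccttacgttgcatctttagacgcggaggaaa
Hist1h3a: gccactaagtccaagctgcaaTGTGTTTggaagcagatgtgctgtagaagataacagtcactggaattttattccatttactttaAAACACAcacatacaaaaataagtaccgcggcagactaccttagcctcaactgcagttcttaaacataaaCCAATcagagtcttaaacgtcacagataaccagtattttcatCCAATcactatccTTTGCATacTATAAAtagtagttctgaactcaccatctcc
Hist1h3e: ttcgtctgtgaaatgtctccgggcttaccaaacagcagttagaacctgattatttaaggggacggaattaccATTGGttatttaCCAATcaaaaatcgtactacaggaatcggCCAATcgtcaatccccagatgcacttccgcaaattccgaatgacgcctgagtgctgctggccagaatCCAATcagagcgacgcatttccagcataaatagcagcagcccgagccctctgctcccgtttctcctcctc
Hist4h4: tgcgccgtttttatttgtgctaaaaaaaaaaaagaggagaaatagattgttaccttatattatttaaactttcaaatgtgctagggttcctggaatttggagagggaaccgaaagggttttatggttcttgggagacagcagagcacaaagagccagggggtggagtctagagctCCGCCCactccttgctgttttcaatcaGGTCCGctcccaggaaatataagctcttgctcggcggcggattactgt

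H2a and H2b genes often lie head to head, so the stretch between their 5′ ends is the promoter of both. The pair Hist2h2ac and Hist2h2be is shown because the highest signal credited to both genes, 2.69 in replicate 1 and 2.83 in replicate 2, had the highest mean of the pairs. These were different peaks: that of replicate 2 lay 889.5 bp from the start of Hist2h2ac, at Hist2h2ab, and also counted for Bola1. The 238 bases between the 5′ ends lie at chr3:96220881-96221118, given on the plus strand. The pair Hist1h2an and Hist1h2bp, 242 bases at chr13:21787219-21787460 on the plus strand, had a single shared peak in each library, between the 5′ ends, and was added after the values had been seen. Both stretches hold at least 3 CCAAT boxes and a TATA box on the minus strand, which faces the H2a gene.
Hist2h2ac and Hist2h2be: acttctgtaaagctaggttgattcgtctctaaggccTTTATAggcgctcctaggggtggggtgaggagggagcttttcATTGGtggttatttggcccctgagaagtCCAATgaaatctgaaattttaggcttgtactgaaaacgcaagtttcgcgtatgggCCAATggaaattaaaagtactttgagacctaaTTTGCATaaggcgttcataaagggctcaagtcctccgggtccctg
Hist1h2an and Hist1h2bp: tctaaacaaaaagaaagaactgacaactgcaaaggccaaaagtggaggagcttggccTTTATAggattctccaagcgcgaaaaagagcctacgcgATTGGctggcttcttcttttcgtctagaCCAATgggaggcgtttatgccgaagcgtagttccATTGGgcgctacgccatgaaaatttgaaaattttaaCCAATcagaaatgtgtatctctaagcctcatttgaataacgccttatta

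Most clustered histone promoters were open in the muscle. A promoter peak is a peak of the longer deposited list that overlaps the 1000 bp on either side of a transcript start. Such a peak was present at 59 of 67 members in replicate 1 (88.1%, Wilson 95% interval 78.2 to 93.8%) and at 55 of 67 in replicate 2 (82.1%, 71.3 to 89.5%). All 55 of replicate 2 were also found in replicate 1. The background over all protein-coding genes was 66.5% for replicate 1, 64.2% for replicate 2 and 63% for both libraries together. Footprints, short stretches protected from cutting within open chromatin, lay within 1000 bp of a start at 56 members in replicate 1 and 54 in replicate 2, with 52 in both (77.6%). The share of all protein-coding genes with a footprint was 64.9% in replicate 1, 62.7% in replicate 2 and 61.5% in both. These shares describe members that share peaks with each other: the strongest peak of 27 members in each library also counted for another member, and the 67 windows held 73 distinct peaks in replicate 1 and 71 in replicate 2. The intervals cover counting error only and treat the members as independent.

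**Figure D1:**
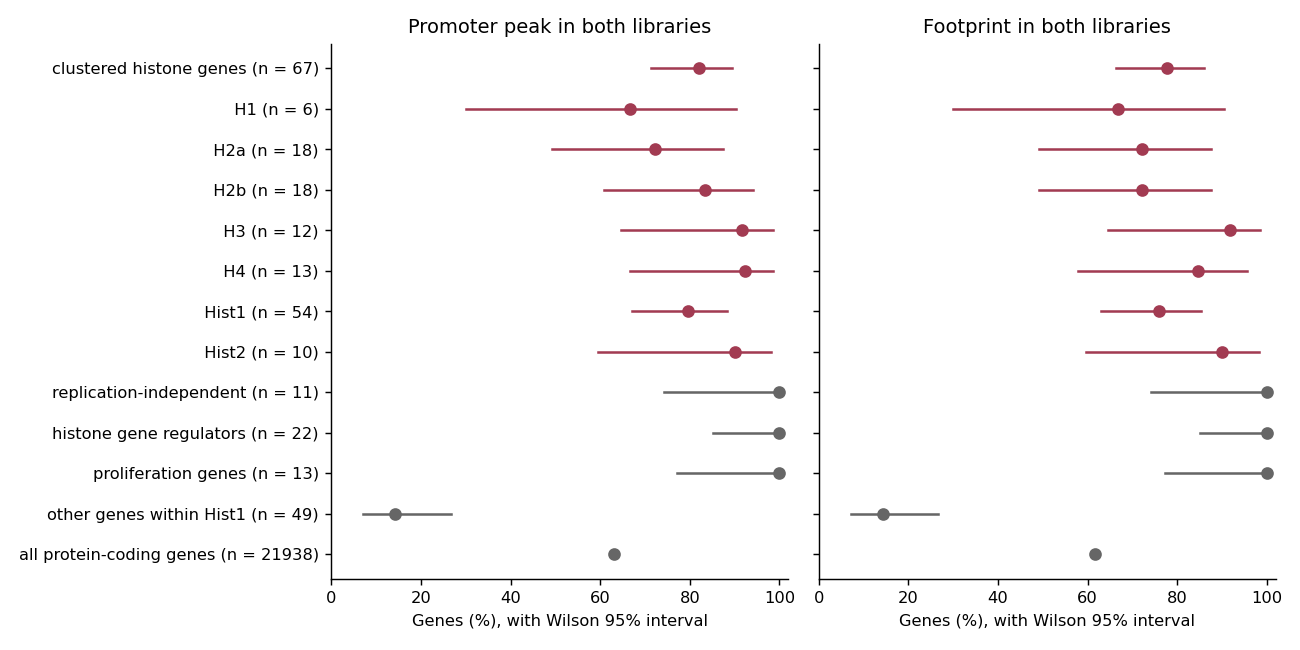
Share of genes (%, x axis) with a promoter peak (left) or a footprint (right) in both libraries, for the clustered histone genes, their types and their 2 larger clusters (red) and for other gene sets (grey). Points are shares and bars Wilson 95% intervals. The clustered histone genes lay at 82.1% and 77.6%, against 63% and 61.5% of all protein-coding genes, while the other genes within the Hist1 cluster lay at 14.3% in both panels.

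Open as they were, most histone promoters carried a weaker peak than a typical promoter. The signal is the authors' value for each peak, and the highest promoter signal of the members had a median of 1.79 in replicate 1 and 1.73 in replicate 2. The medians over all protein-coding genes with a peak were 3.57 and 3.44. The middle of the range (lower to upper quartile) ran from 0.967 to 3.20 in replicate 1 and from 1.08 to 2.86 in replicate 2. Ranked among all protein-coding genes with a peak in the same library, the median member stood at percentile 28.7 in replicate 1 and 25.1 in replicate 2. Only 14 of 59 members in replicate 1 and 13 of 55 in replicate 2 stood above the 50th percentile. A lower signal in bulk tissue can reflect fewer nuclei with an open promoter or less cutting in each, and these cannot be told apart. Reads lost at repeated sequence could also lower it, and their part was not tested.

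**Figure D2:**
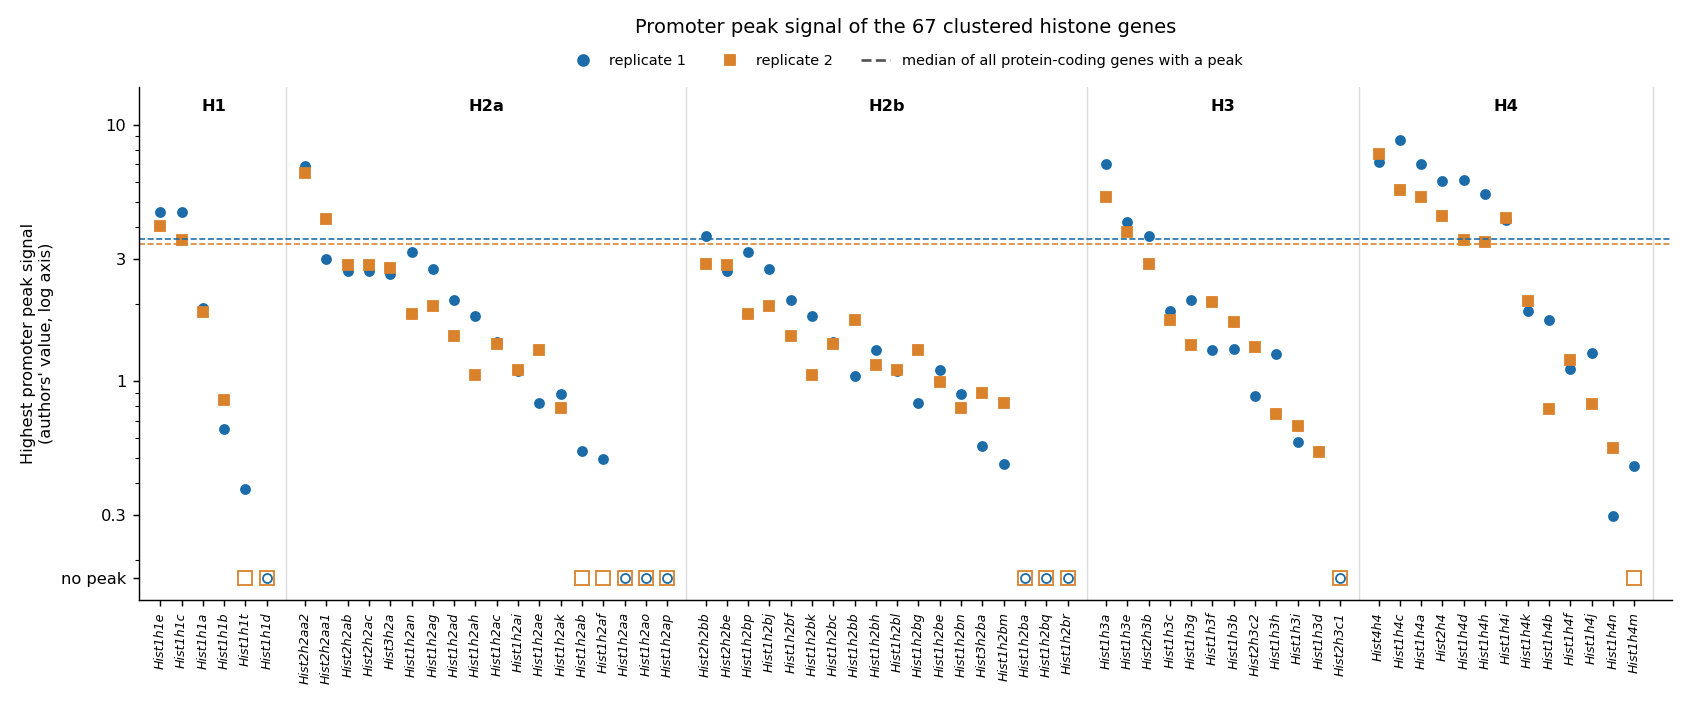
Highest promoter peak signal (y axis, authors' value, log axis) of each of the 67 clustered histone genes, ordered by mean signal within its type, in replicate 1 (circles) and replicate 2 (squares). Open symbols on the lowest line mark members without a peak, and dashed lines mark the median of all protein-coding genes with a peak, 3.57 and 3.44. Of the 13 H4 genes, 7 lay above the dashed line of each library, whereas H2b genes reached it at 1 gene in replicate 1 and at none in replicate 2.

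H4 genes, which encode a core histone of the nucleosome's central tetramer, were the most accessible type. Their median signal was 4.24 in replicate 1 and 3.53 in replicate 2, the highest of the 5 types in each library. The nearest other type median was 2.08 in replicate 1 (H2a) and 2.70 in replicate 2 (H1). In the H4 windows a median of 86.65% of 32-base stretches was found once in the genome. That median was 66.45% for H2a, 67.14% for H2b and 75.15% for H3, but 98.96% for H1. The part of repetition in the order of the types was not tested. A peak was present at all 13 H4 genes in replicate 1 and at 12 in replicate 2. Hist4h4 (ENSMUSG00000096010.2, chr6:136801553-136804415, minus strand), the lone gene of its cluster, had a signal of 7.18 in replicate 1 and 7.72 in replicate 2 (7.45 ± 0.378, SD, n = 2), which put it at percentiles 81.7 and 93.3. Hist1h4c had 8.73 in replicate 1 and 5.57 in replicate 2, the highest member of replicate 1, and Hist1h4a had 7.02 and 5.20. Hist2h4, Hist1h4d, Hist1h4h and Hist1h4i followed, between 4.24 and 6.10 in replicate 1 and between 3.50 and 4.42 in replicate 2. These 7 genes are the H4 genes above the 50th percentile, and no other H4 gene came above 2.04 in either library.

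The lower H4 genes spread widely. Hist1h4n had 0.296 in replicate 1 and 0.547 in replicate 2, the lowest mean of any member with a peak in both libraries. Hist1h4j had 1.28 and 0.812, and Hist1h4f had 1.118 and 1.205. Hist1h4m had a peak of 0.467 in replicate 1 alone, with 143 positions below a q-value of 0.05 in its window in replicate 1 and 3 in replicate 2. The order among these genes changed between the libraries.

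Most H4 promoters held the element named after them. The core GGTCCG was found in the window from 250 bp before to 50 bp after the 5′ end of 12 of 13 H4 genes, and in 9.6% of the same windows of all 21938 protein-coding genes. It lay on the gene strand in all 12, at a median of 49 bp before the 5′ end, between 80 and 11 bp before it. Each line below gives the core in capitals with 10 bases on either side, along the gene, in order of chromosome and position. They are shown because the same 6 bases sit in promoters of very different accessibility.
Hist2h4: ttttcaatctGGTCCGatcctctcat
Hist4h4: ttttcaatcaGGTCCGctcccaggaa
Hist1h4j: ttctcatttcGGTCCGcccgctacag
Hist1h4k: ttctcatttcGGTCCGcccgccgcag
Hist1h4m: ttttcactccGGTCCGcaagttccct
Hist1h4n: ttttcactccGGTCCGcaagttccct
Hist1h4i: ttttcactccGGTCCGcaagttccct
Hist1h4h: tcttcaatcaGGTCCGaaaacactgc
Hist1h4f: tcctctaaaaGGTCCGcattcgccat
Hist1h4d: ttttcaaacaGGTCCGcattggtatt
Hist1h4c: ttttcaaccaGGTCCGcagaaggcct
Hist1h4b: ttctcaaccaGGTCCGataagagcct
In Hist1h4i, Hist1h4m and Hist1h4n all 26 bases were identical. Hist1h4i had a signal of 4.24 in replicate 1 and 4.33 in replicate 2, whereas Hist1h4m and Hist1h4n had at most 0.547. Of the 32-base stretches in the promoter window, 86.9% were found once in the genome at Hist1h4i, 4.21% at Hist1h4m and 4.26% at Hist1h4n. The part of this repetition in the lower signal was not tested. Hist1h4a is the H4 gene without the core in its window, and its mean signal was below those of Hist4h4 and Hist1h4c alone among H4 genes.

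Footprints coincided with the H4 core at most of these promoters. The core overlapped a footprint by at least 1 base at 8 of 12 sites in replicate 1 and, among H4 genes with a peak, at 8 of 11 in replicate 2. It did so in both libraries at 7 genes: Hist2h4, Hist4h4, Hist1h4k, Hist1h4i, Hist1h4d, Hist1h4c and Hist1h4b. At Hist4h4 the footprint covered bases 185 to 229 of the sequence printed above in replicate 1 and bases 184 to 217 in replicate 2, and the core begins at base 203. No footprint overlapped the core at Hist1h4j, Hist1h4m or Hist1h4n in either library. Over all protein-coding genes with a peak, 23.6% of GGTCCG sites in replicate 1 and 23.2% in replicate 2 were overlapped by a footprint. Footprints also covered more of the H4 windows as a whole, 20.7% and 16.6% of bases, against 14.9% and 13.2% for all protein-coding genes with a peak.

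The linker histone genes (H1), whose products bind the DNA between nucleosomes, ranged from strong peaks to none. Hist1h1e (ENSMUSG00000051627.3, chr13:23620629-23622558, minus strand) had a signal of 4.57 in replicate 1 and 4.03 in replicate 2. Hist1h1c had 4.57 and 3.56, from a peak whose centre lay 992.5 bp downstream of the 5′ end in replicate 1 and 1012 bp in replicate 2. A second Hist1h1c peak at the start itself had 3.12 and 3.31. Hist1h1a was lower at 1.93 and 1.85, and Hist1h1b lower again at 0.651 and 0.846. In each library Hist1h1e and Hist1h1c lay above Hist1h1a, and Hist1h1a above Hist1h1b.

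Hist1h1t, the testis-specific linker histone gene, had a peak of 0.379 in replicate 1, centred 525 bp downstream of the start, and none in replicate 2. Hist1h1d had no peak and no position below a q-value of 0.05 within 1000 bp of its annotated starts in either library. Its annotated 5′ end lies 1828 bp before its coding start, unlike most members, whose models begin close to the coding start. Within 1000 bp of the coding start, Hist1h1d had a highest peak of 0.929 in replicate 1, centred 1130 bp downstream of it, and of 0.940 in replicate 2, centred 240 bp downstream. So its lack of a peak depends on the annotated start. Hist1h2be is the 1 member whose coding start is farther from its 5′ end, at 35168 bp. Its counted signals (1.106 in replicate 1 and 0.991 in replicate 2), unique stretches and motifs therefore describe DNA far from its coding sequence. Within 1000 bp of its coding start, the highest peak had 1.171 in replicate 1 and 1.512 in replicate 2.

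The H1 box AAACACA was found at 4 of 6 H1 genes and in 6.4% of all protein-coding windows. The 4 sites lay within a narrow span, 113 to 117 bp before the 5′ end, and are printed here with 10 bases on either side because they differ in accessibility at nearly the same place.
Hist1h1b: ggggactaacAAACACAatttgggatt
Hist1h1e: gaggtgtaacAAACACAactccgcatc
Hist1h1t: gggggaaaagAAACACAaatgcccctc
Hist1h1c: gaagtgtaacAAACACAagttgggcgc
A footprint overlapped the H1 box of Hist1h1c in both libraries and that of Hist1h1e in replicate 1 alone. None overlapped it at Hist1h1b or Hist1h1t, where the signals were lowest.

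H2a and H2b genes, which encode the dimer on either face of the nucleosome, were organised as pairs. Of the 36 H2a and H2b genes, 24 formed 12 divergent pairs with 5′ ends 175 to 305 bp apart (median 258.5 bp). In 9 of the 12 pairs, both genes had the same strongest peak in each library, and in 8 of them a footprint lay between the 5′ ends. The other 3 pairs, Hist1h2ao with Hist1h2bq, Hist1h2ap with Hist1h2br and Hist1h2aa with Hist1h2ba, had neither a peak nor a footprint between them. With 5′ ends this close and windows of 1000 bp on either side, both genes of a pair are credited with nearly the same peaks by construction, so the counts do not show whether 1 gene of a pair was open without the other. Where a peak counted for the nearest start alone, the peak of Hist1h2an and Hist1h2bp was assigned to Hist1h2bp in both libraries. The peak of Hist1h2ad and Hist1h2bf, and that of Hist1h2ah and Hist1h2bk, was assigned to the H2a gene in replicate 1 and to the H2b gene in replicate 2.

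The open pairs differed in the strength of the peak between the 5′ ends. The peak between Hist1h2an and Hist1h2bp had a signal of 3.20 in replicate 1 and 1.82 in replicate 2, that between Hist1h2ag and Hist1h2bj 2.74 and 1.96, and that between Hist1h2ad and Hist1h2bf 2.076 and 1.495. The highest peak between Hist2h2ac and Hist2h2be had 2.69 in replicate 1 and 2.20 in replicate 2. Weakest were the pair Hist1h2ak and Hist1h2bn, with 0.893 and 0.786, and the pair Hist1h2ae and Hist1h2bg, with 0.822 and 1.04 and no footprint between the 5′ ends. The order of the strongest 3 pairs changed between the libraries: Hist1h2an with Hist1h2bp came first in replicate 1, and Hist2h2ac with Hist2h2be in replicate 2.

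Among single H2a genes, Hist2h2aa2 (ENSMUSG00000063954.7, chr3:96239749-96240276, minus strand) stood out, with 6.92 in replicate 1 and 6.49 in replicate 2 (6.70 ± 0.308, SD, n = 2). Its neighbour and near copy Hist2h2aa1 had 3.01 and 4.30. The median of the H2a genes was 2.08 in replicate 1 and 1.82 in replicate 2. Hist1h2ab and Hist1h2af had peaks of 0.532 and 0.497 in replicate 1 and none in replicate 2, where 43 and 12 positions of their windows lay below a q-value of 0.05. The lowest H2a genes with a peak in both libraries were Hist1h2ak, given above, Hist1h2ae with 0.822 and 1.324, and Hist1h2ai with 1.094 and 1.102.

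H2b genes had the lowest median of the types, 1.32 in each library. Hist2h2bb had 3.67 in replicate 1 and 2.86 in replicate 2, and was the only H2b gene above the 50th percentile, in replicate 1. Hist2h2be shared the strongest peak of its pair, and Hist1h2bp that of its own. Lowest were Hist1h2bm with 0.473 and 0.820, Hist3h2ba with 0.556 and 0.897, and Hist1h2bn with the values of its pair. In the Hist3 cluster, Hist3h2a had 2.61 and 2.77 at a peak 325.5 and 355.5 bp downstream of its start, which also counts for Trim17.

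H3 genes, which encode the partner of H4 in the tetramer, had peaks at 11 of 12 members in each library, with a median of 1.33 in replicate 1 and 1.70 in replicate 2. Hist1h3e (ENSMUSG00000069273.2, chr13:23561534-23562369, minus strand) had 4.158 and 3.802 at its own start. Hist1h3a was credited with 7.02 and 5.20, but that peak lay 975.5 and 1006 bp downstream of its start, upstream of and nearer to the start of Hist1h4a. The highest peak that lay nearer to Hist1h3a than to any other gene had 0.603 and 0.949. In the same way Hist2h3b, credited with 3.67 and 2.86 from the peak of Hist2h2bb, had 1.85 and 2.23 of its own. Hist1h3d was the lowest at 0.532 and 0.530, followed by Hist1h3i at 0.580 and 0.667 and Hist1h3h at 1.28 and 0.743.

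The motifs of these 3 types differed from those of H4. A CCAAT box was found in the windows of all 18 H2a and all 18 H2b genes of 11 of 12 H3 genes and of 5 of 6 H1 genes, but of 4 of 13 H4 genes. The share over all members was 83.6%, and over all protein-coding genes 39.0%. The octamer ATTTGCAT was found at 7 H2a and 8 H2b genes, at no other type, and in 1.57% of all protein-coding windows. The E2F motif TTTCGCG was likewise found at H2a and H2b genes alone, 8 and 6 of them, and in 1.04% of all protein-coding windows. The other E2F form searched, TTTGGCG, was found at no member and in 1.93% of all protein-coding windows. A site between the genes of a pair lies in both windows and counts for both. The TATA box was found at 37 of 67 members (55.2%), and in 12.7% of all windows. GC boxes were found at 41.8% of members and in 43.0% of all windows, with 10 of 13 among H4 genes and 2 of 12 among H3 genes. In the wider window from 500 bp before to 100 bp after the 5′ end, the GC box shares were 67.2% of members and 49.3% of all genes. Both strands were searched and overlapping matches counted, and the octamer contains the octamer core.

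**Figure D3:**
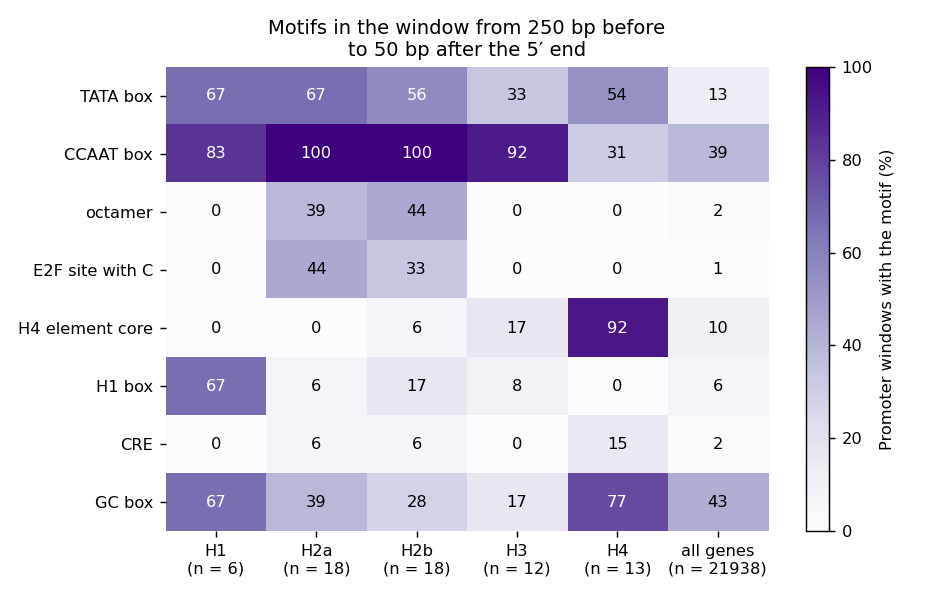
Share of promoter windows (%, printed in each cell and shown by shade) that hold a motif, for each histone type and for all protein-coding genes (columns, with the number of genes). CCAAT boxes reached 100% in H2a and H2b windows and the H4 element core 92.3% in H4 windows, against 39.0% and 9.6% of all genes.

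Some of these motifs coincided with footprints and others did not. TATA boxes were overlapped at 14 of 30 sites of open members in replicate 1 and at 9 of 28 in replicate 2, against 13.6% and 10.1% of such sites over all protein-coding genes with a peak. CCAAT boxes were overlapped at 26 of 100 sites in replicate 1 and at 14 of 95 in replicate 2, against 27.8% and 21.2%. No octamer was overlapped, of 9 sites in replicate 1 and 8 in replicate 2, and the share over all genes was 11.4% and 9.65%. At Hist2h2aa2 both CCAAT boxes and the TATA box printed above were overlapped in each library. At the pair Hist2h2ac and Hist2h2be the TATA box was overlapped in each library, and the 3 CCAAT boxes and the octamer core were not. Each of these counts is small, and a match says only that the letters are present.

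The windows of the histone genes held less G and C than those of other genes. The median G and C content was 45.3% over members and 55% over all protein-coding genes. The CpG content relative to that expected from the base composition was nevertheless higher, at 0.75 for members and 0.525 for all genes.

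Positions with significant cutting were more frequent at histone genes than at other genes around the 5′ end, and less frequent at 300 bp downstream. At 10 bp downstream of the annotated 5′ end, 80.6% of members in replicate 1 and 74.6% in replicate 2 had a q-value below 0.05, against 54.0% and 51.7% of the other protein-coding genes. The histone share first lay below the other share downstream at 130 bp in replicate 1 and at 150 bp in replicate 2, and at 300 bp it was 28.4% and 31.3%, against 45.6% and 46.0% of the others. At 300 bp upstream it was higher, 49.3% and 37.3% of members and 33.0% and 30.1% of the others. At 1500 bp upstream, where neighbouring histone genes can lie, the shares were 14.9% in each library for members, and 2.42% and 1.82% for the others. At 1500 bp downstream the histone share was again higher, 10.45% and 8.955% of members against 5.153% and 4.604% of the others. The strongest peak of a member lay a median of 102.5 bp from its nearest start in replicate 1 and 90.5 bp in replicate 2, farther than the 59.5 and 66.5 bp of all protein-coding genes with a peak. It was centred within 100 bp of a start at 49.2% and 52.7% of members with a peak, against 66.6% and 63.0% of all such genes. For H4 genes the distances were 46.5 and 50.5 bp, and 11 of 13 and 11 of 12 of their peaks were centred within 100 bp of a start.

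**Figure D4:**
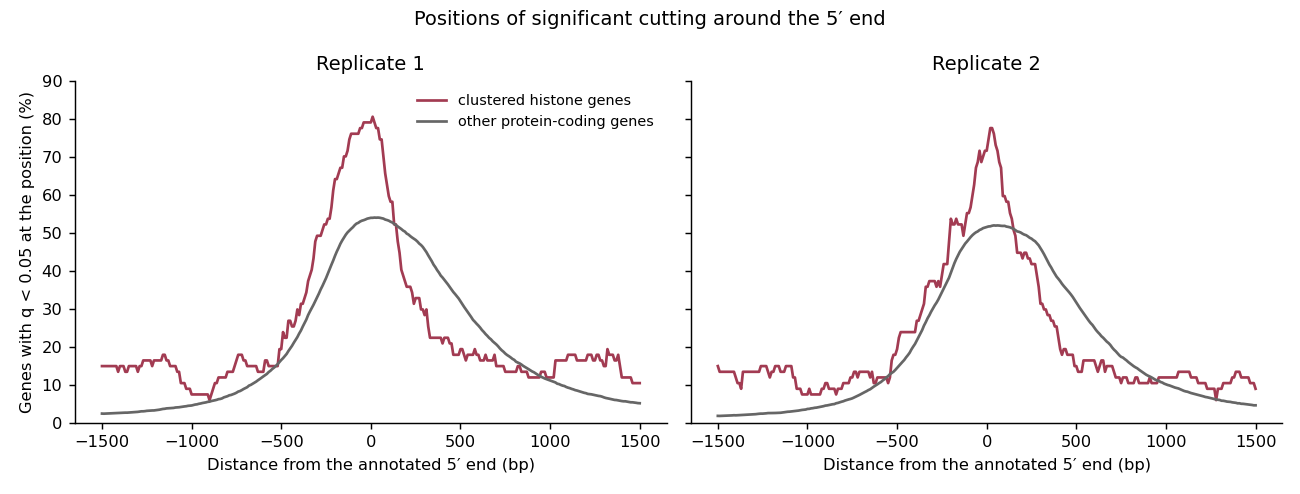
Share of genes (%, y axis) with a q-value below 0.05 at each distance from the annotated 5′ end (bp, x axis, negative upstream), for the 67 clustered histone genes (red) and the other protein-coding genes (grey), in replicate 1 (left) and replicate 2 (right). The histone curve was higher around the 5′ end, with 80.6% and 74.6% of genes at 10 bp against 54.0% and 51.7%. It first fell below the grey curve downstream at 130 bp in replicate 1 and at 150 bp in replicate 2. At 300 bp downstream it stood at 28.4% and 31.3% against 45.6% and 46.0%. By 1500 bp downstream it was above again, at 10.45% and 8.955% against 5.153% and 4.604%.

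The Hist2 genes had higher signals than the Hist1 genes. The 10 Hist2 genes lie within 50.3 kb (chr3:96219865-96270132) and had a median signal of 3.01 in replicate 1 and 2.86 in replicate 2, with a peak at 9 genes in each. The 54 Hist1 genes (chr13:21715763-23934851) had medians of 1.41 and 1.39, with a peak at 47 and 43 genes. Hist1 falls into stretches of 23 members over 327.9 kb and 31 members over 403.8 kb, separated by 1487 kb without a member. Peaks of any kind numbered 13.3 and 12.7 per 100 kb in the first stretch and 12.6 and 10.1 in the second stretch, but 2.95 and 2.62 in the gap. Genome-wide there were 3.58 and 2.27 per 100 kb. Median signals of the members were 1.28 and 1.05 in the first stretch and 1.57 and 1.70 in the second stretch.

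Other genes inside the Hist1 cluster were mostly closed. Of 49 such protein-coding genes, 8 had a promoter peak in replicate 1 and 7 in replicate 2. In the gap, 36 of the 40 genes were Vmn1r genes, which encode vomeronasal receptors, and none of these had a peak or a footprint in either library. A count of 0 of 36 allows a share of up to 9.64% by the Wilson interval. Their windows were largely unique in sequence, with a median of 84.7% of 32-base stretches found once, against 75.5% for the histone genes. Among the 9 other genes inside the stretches, 4 had a peak in each library.

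Of the 8 members without a peak in either library, 5 had windows that are mostly repeated in the genome. Hist1h2ao, Hist1h2bq, Hist1h2ap and Hist1h2br form 2 divergent pairs whose windows held no 32-base stretch found once, with a median of 2 copies. Hist2h3c1 had 19.4% unique stretches. Which reads were kept at repeated sequence is not given in the sources used here, so a closed promoter and reads that could not be placed cannot be told apart at these 5 genes. The other 3, Hist1h1d, Hist1h2aa and Hist1h2ba, had 99.2%, 89.3% and 89.3% unique stretches. Hist1h2aa and Hist1h2ba encode histones known from the testis, and with Hist1h1t they are the members known as testis genes: together they had 1 peak in replicate 1 and none in replicate 2. All 8 also lacked any position below a q-value of 0.05.

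Repetition did not always go with a missing peak. Hist2h2aa2 and Hist2h2aa1, near copies with 40.6% and 43.4% unique stretches, were the 2 H2a genes with the highest mean signal. Hist2h3c2, at 20.4%, had 0.875 in replicate 1 and 1.36 in replicate 2, while its near copy Hist2h3c1 had no peak. The values of Hist2h3c2 came from different peaks, centred at -13.5 bp from its start in replicate 1 and at -523.5 bp in replicate 2 (negative upstream). The peak of replicate 2 was the only one in its window and was absent from the stricter list. So Hist2h3c2 did not show the same open site in both libraries. Across the 55 members with a peak in both libraries, the share of unique stretches and the log2 signal had a Spearman correlation of 0.167 in replicate 1 and 0.148 in replicate 2, given as a description of genes that share peaks. It leaves out the members without a peak, whose median was 9.72% unique stretches, and so says nothing of missing peaks. Restricted to the 57 members with at least 50% unique stretches, 51 had a peak in both libraries, and the median signal was 1.83 in replicate 1 and 1.73 in replicate 2. The share over all protein-coding genes was 63% without such a restriction, and was not counted with it.

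**Figure D5:**
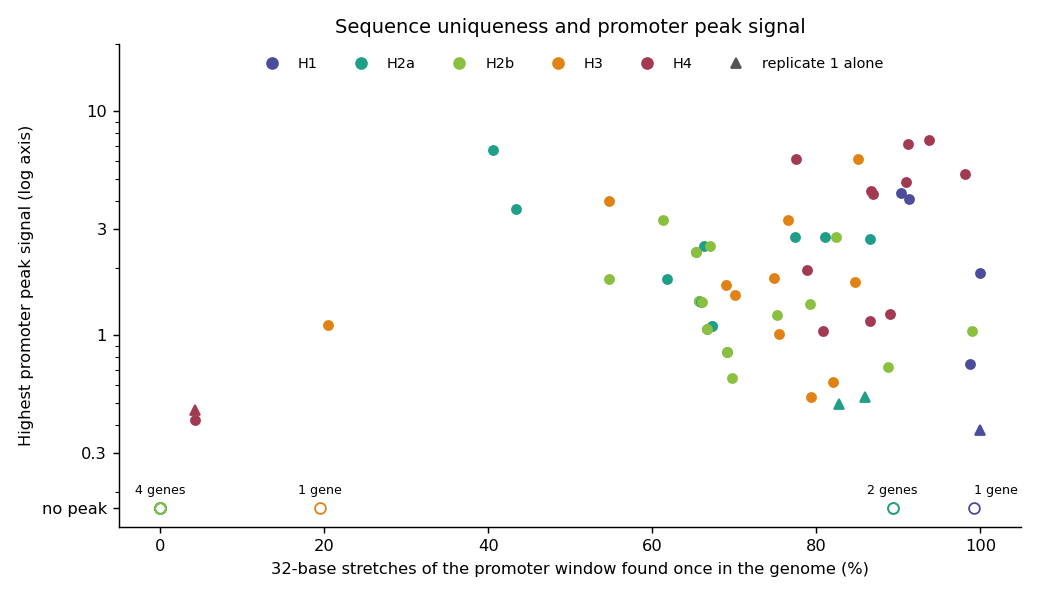
Highest promoter peak signal (y axis, mean of the libraries, log axis) against the share of 32-base stretches of the promoter window found once in the genome (%, x axis), by histone type. Triangles mark members with a peak in replicate 1 alone, and open circles members without a peak. Of the 8 members without a peak, 4 lay at 0% and 1 at 19.4%, and 3 at 89.3% or above.

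The stem-loop that ends replication-dependent histone messages was present in the genome at 60 of 67 members, within 200 bp after the coding end and at a median of 35 bp after it. It was searched as a stem of 6 paired bases, starting with GG and ending with CT, around a 4-base loop that begins with TT. Capitals mark the stem in the most frequent forms, named by the genes that carry them. Of the members, 38 carried the first form, 9 the second and 8 the third, and all 8 of the third were H4 genes. The examples lie on the minus strand, at chr13:23621782-23621797 after Hist1h1e, at chr13:23561903-23561918 after Hist1h3e and at chr6:136803998-136804013 after Hist4h4.
Hist1h1e: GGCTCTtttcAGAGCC
Hist1h3e: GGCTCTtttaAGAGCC
Hist4h4: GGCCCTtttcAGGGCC
The members without it in that stretch were Hist2h2be, Hist1h2an, Hist1h2bp, Hist1h2bq, Hist1h2br, Hist1h3g and Hist1h4a. A promoter peak was present in both libraries at 5 of these 7. The coding end was the farthest of any transcript, and Hist1h2bp, Hist1h2bq and Hist1h2br have 2, 3 and 3 transcripts. A stem-loop after a nearer coding end of these genes would have been missed. Within 100 bp of the annotated 3′ end, only 37 members held the stem-loop.

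Histone genes outside the clusters, most of which do not depend on S phase for their transcription, had higher signals. All 11 replication-independent genes examined had a promoter peak and a footprint in each library, and their median signal was 7.18 in replicate 1 and 5.75 in replicate 2. H2afv had 11.26 and 9.245, H2afj 9.99 and 6.48, and H3f3a, which encodes H3.3, 7.18 and 6.85. H2afy2 (0.763 and 1.15) and H1fx (1.17 and 1.60) were in the range of the clustered genes. Among the clustered genes, Hist4h4 and Hist1h4c reached the median of this list in replicate 1, and Hist4h4 and Hist2h2aa2 in replicate 2. A median of 98.4% of 32-base stretches was found once in the windows of this list, against 75.5% for the clustered genes. The part of repetition in the difference in signal was not tested. Of the germline histone genes, H1fnt had 0.550 and 0.359, and H1foo and Hils1 had no peak.

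Genes that act on the clustered histone genes or their messages were open. All 22 regulators had a peak in each library, with medians of 7.33 and 5.73. Nfya, a subunit of the CCAAT-binding NF-Y, had 14.4 in replicate 1 and 10.5 in replicate 2, Ccne1, which encodes cyclin E1, had 10.7 and 10.3, and Npat, the coactivator that cyclin E and CDK2 phosphorylate, had 12.16 and 7.998. All 7 histone chaperone genes and all 13 proliferation genes had a peak as well. Hira, Chaf1b and Asf1b, which encode chaperone subunits, had the highest means of the chaperones, with 6.583, 5.211 and 7.204 in replicate 1 and 5.973, 6.69 and 4.512 in replicate 2. The proliferation genes had medians of 5.20 and 4.52, and Mcm5, Ccna2 and Pcna had the highest means among them. The medians of each of these lists exceeded the median of the clustered histone genes in both libraries. Windows of regulators and proliferation genes were less repeated, with medians of 96.5% and 95.7% of 32-base stretches found once. The part of repetition in these differences was not tested.

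All 8 muscle fibre markers had a promoter peak in each library, highest at Actn3 with 6.31 and 5.94, followed by Mylpf and Ckm. The median of the fibre markers was 2.63 in replicate 1 and 1.82 in replicate 2, below that of all protein-coding genes with a peak, and 5 of the 8 lay below the 50th percentile in each library. Of the markers of other cell types, Pax7 of satellite cells had 0.686 and 0.931, and Myf5 had a peak of 0.450 in replicate 1 alone. The endothelial and stromal markers examined, 2 of each, all had a peak in each library. The stromal markers Pdgfra (2.85 and 3.05) and Pdgfrb (2.60 and 1.72) had a median of 2.72 and 2.38, above that of the fibre markers. Among leukocyte, erythroid, hepatocyte and germ cell markers, Spi1, Tal1, Apob and Dazl had a peak in each library, the highest at Dazl with 4.92 and 2.90, while Ptprc, Cd68, Gata1, Klf1, Alb, Ddx4, Prm1 and Prm2 had none. The part of each cell type in the signal of the histone genes was not tested.

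At the histone genes, the ratio between the libraries centred on that of all genes. The longer list held 97499 peaks in replicate 1 and 61664 in replicate 2, with 243784 and 171389 footprints. Signals were whole multiples of 0.00592 and 0.00855, within 0.1 of a whole number, as they would be if a step were 1 tag per library total. Expressed as log2 of replicate 1 over replicate 2, the highest signal of a promoter had a median ratio of 0.12 over 13818 protein-coding genes. Relative to that, the 55 members with a peak in both libraries had a median of 0.00, with 28 above and 27 below. The ratio went beyond 2-fold at 2 of the 55 members, Hist1h4b at 1.035 and Hist1h4n at -1.003 on the centred log2 scale, against 1.98% of all protein-coding genes. The 4 members with a peak in 1 library alone all had it in replicate 1, the library with more peaks. Of all 21938 protein-coding genes, 764 had a peak in replicate 1 alone and 266 in replicate 2 alone. With a single library per biosample, differences between biosamples and between libraries cannot be told apart.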

How the data were processed

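Per the deposited notes on the files, the authors aligned each DNase-seq library to mm10 and made from it a longer and a stricter peak list, footprints and a list of false discovery rates. Not given in the sources used here are the caller, its version and the treatment of reads with several placements. The peak signal is the authors' value, whose unit is not named; signals of the deposited lists were whole multiples of a fixed step. Footprints carry a constant score of 0.01 in the deposited files, so their positions alone were used. The deposited q-values are listed only below 0.05.

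Starts came from all transcripts of GENCODE M21 on 21 chromosomes. A peak or footprint counted for a gene when it overlapped 1000 bp on either side of a start, and the highest signal was kept. Promoter sequences were read from the RefSeq genome GRCm38.p6. Stretches of 32 bases were counted over that genome. Python 3.11.15, numpy 2.4.6, pandas 2.3.3, scipy 1.17.1 and matplotlib 3.10.9 were used, and the counting was checked on simulated peaks placed at known genes. Log2 ratios were centred on the median over all protein-coding genes.

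Named genes were the members without a peak, those with a peak in 1 library, the 3 highest and 3 lowest of each type by mean signal among those with a peak in both libraries, those with the most extreme ratios, and the 3 highest of each other list. The members and lists were chosen with earlier results of these data known. Labels give biological replicate numbers but the same donor identifier, so the spread between the libraries may in part be technical. Alternatives were another window, list, start, assignment of peaks, k-mer length and motif window.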

Additional observations from a re-analysis of the deposited data

How the results depend on the processing

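Of 89 alternative values over 39 results, 71 stayed within the limits set for a change and 18 moved. Some of these labels were fixed beforehand, so the tally does not measure how stable the results are. Leaving out a library could not move the median signal by its limit, and stretches of 24 bases counted as moved by rule. The median centred log2 ratio between the libraries turned from 0.00 to -0.09 with 500 bp on either side, a shift within the spread over members (SD 0.487). The number of histone genes with a peak in both libraries, 55, ran between 46 (stricter list) and 61 (2500 bp on either side), and was 47 where a peak counted for the nearest start alone. In the stricter list, 52 and 46 of 67 members had a peak in replicates 1 and 2, against 13600 and 12841 of 21938 protein-coding genes. For 2500 bp and for nearest starts the share over all genes was not counted, so those counts have no background. The median signal of 1.76 (mean of the libraries) was 1.61 with 500 bp on either side, 1.85 with 2500 bp, 1.95 in the stricter list, 1.815 with equal numbers of strongest peaks, 1.43 with nearest starts and 2.22 with summed signals. With 500 bp and with nearest starts, the median was 1.36 and 1.29 for Hist1, 2.76 and 2.76 for Hist2, and 1.245 and 1.119 for H2b. In a motif window of 500 bp before to 100 bp after the 5′ end, 2 members held TTTGGCG (2.99%, against 3.23% of all genes). In that window 45 members held a GC box (67.2%, against 49.3% of all genes). Taking the peak nearest to a start gave a median distance of 61.5 bp. Without the longest gap, 44.4% of the other genes in Hist1 had a peak in both libraries. Stretches of 24 bases gave a median of 73.3% found once. The stem-loop count was 37 near annotated 3′ ends and 60 after coding ends. That last search, the coding-start window and the restriction to members with mostly unique sequence were chosen after seeing the data. The cause of each other move was not tested. Leaving out a library gave 55 to 59 members with a peak, 54 to 56 with a footprint and median signals from 1.73 to 1.79. No paired analysis was possible because there is 1 group. With 2 libraries, no difference between members could be tested, and repeated sequence limits what the depth can show.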
